A study of Homo sapiens with 9 samples.

Results

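Antisense long noncoding RNAs are transcripts that run along the strand opposite to a neighbouring gene, and most are named after that gene with the ending AS and a number. The RNA-seq table of MDA-MB-231 cells listed 60649 genes, and 1545 rows carried such a name with 1 digit. Of these, 173 had a mean raw count of at least 20 over the 9 libraries and were selected on that mean. The selection did not use the group labels, but a mean over all libraries can be carried by the group in which a gene is high, so the comparisons are not independent of it and the levels of the members are a description. Each antisense RNA was set beside the gene named before its hyphen, here called its partner. The 173 members had 172 partners, since DLGAP1-AS1 and DLGAP1-AS2 share 1.

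MDA-MB-231 is a human triple-negative breast cancer cell line, sampled here while proliferating. The control cells carried the lentiviral vector pLKO-GFP, and the other cells carried a short hairpin against AHR, labelled shAHR#2 or shAHR#3, in the same vector system. AHR encodes the aryl hydrocarbon receptor, a ligand-activated transcription factor. Each of the 3 groups had 3 libraries, and the labels do not say that these came from separate transductions, so p-values measure the spread between libraries only. Transduced cells were selected with puromycin and pooled, not cloned, per the study's methods.

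Antisense RNAs can arise where a promoter fires in both directions, where a second promoter lies inside or beyond the partner, or where reading continues past the end of a neighbour. Some are known to act on the chromatin, splicing or stability of the gene they face, and others have no known role. Many stay in the nucleus and are turned over by the exosome, a complex that degrades RNA from its end. Changes in one transcript of a pair therefore need not be matched by the other. In bulk RNA, fewer cells that express a gene and less RNA per cell cannot be told apart.

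The targeted gene was lower in both knockdown groups. AHR had 2022, 2368 and 2385 counts in the pLKO-GFP libraries, 792, 629 and 662 in the shAHR#2 libraries and 900, 1019 and 912 in the shAHR#3 libraries. Its log2 fold change was -1.50 with shAHR#2 and -1.31 with shAHR#3. Library totals ran from 15991396 to 20374460 counts. The mesenchymal marker VIM was abundant and the estrogen receptor gene ESR1 had 0 to 4 counts per library, while the epithelial cadherin gene CDH1 had 14 to 20 counts in the control libraries and rose by 1.00 and 2.19 on the log2 scale.

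The arrangement of each pair was read from GENCODE 44 gene models on GRCh38, which held 172 of the 173 members. In 76 pairs the 5' ends overlapped head to head, and in 40 the 3' ends overlapped tail to tail. Another 24 antisense RNAs lay inside the partner, and 17 spanned it whole. In 14 pairs the genes pointed away from each other without touching. LYRM4-AS1 faced its partner without overlap, and FRMD6-AS1 had no model. The 2 transcription starts were within 1 kb of each other in 56 pairs and within 100 bases in 12.

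Some of the short gaps are shown as sequence because such pairs can share 1 promoter region. Other short gaps are not shown, among them those of TRIM52-AS1 (starts 19 bases apart), UBA6-AS1 (54) and SUCLG2-AS1 (57). The stretches below were read 5' to 3' on the partner's strand from RefSeq promoter windows on GRCh38. Each begins up to 100 bases inside the antisense RNA, which reads the other strand, and ends 25 bases past the partner's start. Capitals mark the bases between the 2 starts. These pairs, other than EXOC3, were chosen for their short gaps after their values had been seen.
EXOC3-AS1 and EXOC3, chr5:443061-443199, plus strand: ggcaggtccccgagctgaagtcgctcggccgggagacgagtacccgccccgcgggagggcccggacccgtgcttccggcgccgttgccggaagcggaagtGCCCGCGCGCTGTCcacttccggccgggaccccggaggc
RNASEH1-AS1 and RNASEH1, chr2:3558309-3558518, minus strand: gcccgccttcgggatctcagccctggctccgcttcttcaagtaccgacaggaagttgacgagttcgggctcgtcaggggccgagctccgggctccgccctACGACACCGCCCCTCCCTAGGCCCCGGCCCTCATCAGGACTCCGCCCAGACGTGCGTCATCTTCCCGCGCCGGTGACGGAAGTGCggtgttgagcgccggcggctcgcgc
TPT1-AS1 and TPT1, chr13:45341260-45341433, minus strand: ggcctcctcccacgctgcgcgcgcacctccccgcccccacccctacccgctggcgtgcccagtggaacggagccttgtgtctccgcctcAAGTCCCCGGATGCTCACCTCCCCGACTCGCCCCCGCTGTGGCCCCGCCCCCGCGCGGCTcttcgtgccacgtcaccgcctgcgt
ZNF22-AS1 and ZNF22, chr10:45000789-45000947, plus strand: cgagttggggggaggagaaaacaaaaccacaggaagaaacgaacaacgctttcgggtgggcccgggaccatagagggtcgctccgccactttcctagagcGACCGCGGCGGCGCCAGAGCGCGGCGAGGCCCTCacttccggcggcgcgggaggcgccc
The gaps in capitals measured 14 bases for EXOC3, 85 for RNASEH1, 60 for TPT1 and 34 for ZNF22.

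BCAN-AS1 rose most of all members and has a start of its own, 386 bases upstream of BCAN. Its sequence from 250 bases before to 50 bases after the start was read from hg38, on its own minus strand, with the transcribed bases in capitals.
BCAN-AS1, chr1:156640955-156641254, minus strand: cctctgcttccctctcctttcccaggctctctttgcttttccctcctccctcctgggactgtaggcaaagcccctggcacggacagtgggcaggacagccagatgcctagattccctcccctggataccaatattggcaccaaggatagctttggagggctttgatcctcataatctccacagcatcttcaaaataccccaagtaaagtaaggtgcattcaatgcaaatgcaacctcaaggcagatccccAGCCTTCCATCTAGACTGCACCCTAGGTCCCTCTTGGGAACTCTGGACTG

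The core of the binding motif of AHR and its partner ARNT is GCGTG. It was searched on both strands in the RefSeq promoters, which span 250 bases before to 50 bases after a start. It occurred in 76 of the 140 antisense promoters that could be matched by symbol (54.3%), in 66 of 144 partner promoters (45.8%) and in 36.3% of all 27305 promoters. The longer form TNGCGTG, which contains the core, occurred in 13.6% of the antisense promoters, 6.25% of the partner promoters and 5.51% of all promoters. Of the stretches printed above, TPT1 held the core at 2 places and the others at 0. A match of letters is not evidence of binding, and base composition was not matched between these sets.

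Antisense RNAs were scarce. Their median raw count was 58.4, against 408 over all 14274 genes tested, and together they made up 0.143% to 0.155% of the counts in a library. FGD5-AS1 and OIP5-AS1 alone held 28.3% of the members' counts. Per kilobase of exon, the antisense RNA in control cells had a median level of 16.0% of its partner, with quartiles of 5.31% and 53.7% over 149 pairs with a tested partner, and 24 were above the partner. At the threshold, ATP2B1-AS1 (mean raw count 20.1), SGMS1-AS1 (20.2) and FOXN3-AS1 (20.2) were just inside, and PCF11-AS1 (19.9), FOXD3-AS1 (19.6) and ZNF232-AS1 (19.3) just outside. Of the members, 26 had a mean below 20 in at least 1 group, and these were selected through the groups in which they were higher. The control mean was below 20 in 8, which include BCAN-AS1, ELF3-AS1, HAS2-AS1 and ZNF503-AS2. A knockdown mean was below 20 for TP73-AS1, HIF1A-AS3, EXOC3-AS1, ZNF337-AS1, SGMS1-AS1, PRKG1-AS1 and GOLGA4-AS1, among others. The changes of these members are given as values and do not support a statement on the antisense RNAs as a set.

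Over the mean of the 3 groups, the members with the highest CPM (counts scaled to library size, in parts per 1e+06) per kilobase were FGD5-AS1, SLCO4A1-AS1, OIP5-AS1, ADGRD1-AS1 and THAP9-AS1, in that order. In control cells alone PITPNA-AS1, at 8.16 CPM per kb, stood above OIP5-AS1 and SLCO4A1-AS1. FGD5-AS1 stood at 35.5 CPM per kb in control cells, while its partner FGD5 had 1 count in 1 control library and 0 in the other 8 libraries. FGD5-AS1 fell slightly, by 0.08 and 0.11 on the log2 scale, and the first of these was lost without shAHR#2 replicate 1 or 3 (-0.06 each). Its level was 215 ± 0.962 CPM (SD, n = 3) in control, 204 ± 3.35 with shAHR#2 and 199 ± 1.72 with shAHR#3. THAP9-AS1 was at 8.39 CPM per kb and THAP9 at 0.807 CPM per kb in control. The plot of levels shows that the antisense transcript was the minor one in most pairs.

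**Figure D1:**
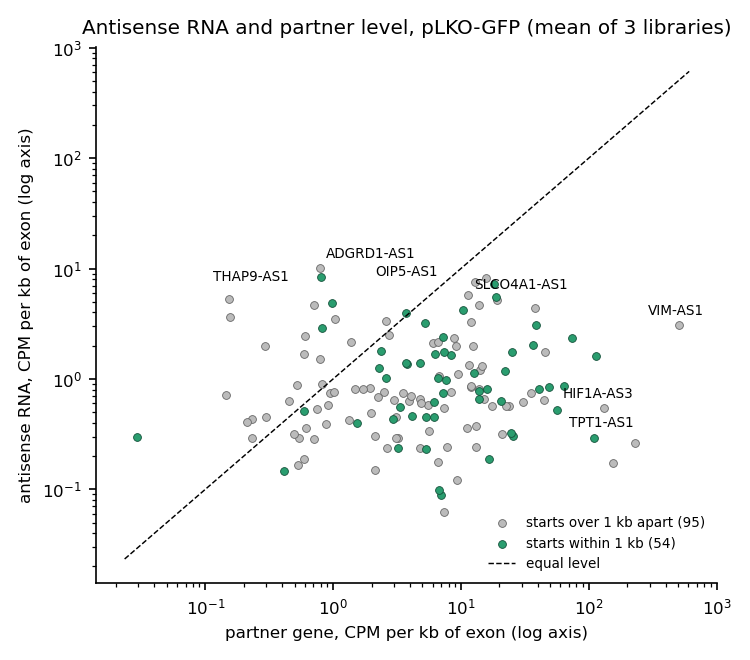
Level of each antisense RNA (y axis) against its partner (x axis) in pLKO-GFP cells, both as mean CPM per kilobase of exon on log axes, for pairs with a tested partner. Points are pairs, in green where the 2 starts lie within 1 kb and in grey otherwise, and most lie below the dashed line of equal level, with a median of 16.0% of the partner.

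All 173 members passed the filter on low counts. A change was called at a Benjamini-Hochberg adjusted p under 0.05 over all genes tested, from the quasi-likelihood fit of edgeR. With shAHR#2, 93 antisense RNAs changed, of which 34 rose and 59 fell. Over all genes, 65.8% were called in this comparison, 32.6% higher and 33.2% lower, so the members' share of 53.8% was below the background, and 19.7% of them rose and 34.1% fell. Their median log2 fold change was -0.17, against -0.00 for all genes. With shAHR#3, 77 changed, 27 up and 50 down. Here 54.4% of all genes were called, 26.9% higher and 27.5% lower, against 44.5% of members, 15.6% higher and 28.9% lower, with a median of -0.11. The members' median count was lower than that of all genes, and its part in these shares was not tested. These counts include the members with a mean below 20 in a group, so selection enters them.

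Without overlap between the 3 control and the 3 knockdown libraries in CPM, 39 antisense RNAs were higher and 66 lower with shAHR#2, and 33 were higher and 61 lower with shAHR#3. With shAHR#2 these were 22.5% and 38.2% of members, against 33.8% and 34.4% of all genes tested. With shAHR#3 they were 19.1% and 35.3%, against 29.2% and 29.5% of all genes. The partners divided more evenly. Of the 150 tested, 56 rose (37.3%) and 53 fell (35.3%) with shAHR#2, and 49 rose (32.7%) and 44 fell (29.3%) with shAHR#3. In all, 72.7% and 62.0% of partners were called, against 65.8% and 54.4% of all genes. The remaining 22 partners, including BCAN, MMP25, FGD5 and DLGAP1, were too low to be tested.

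**Figure D2:**
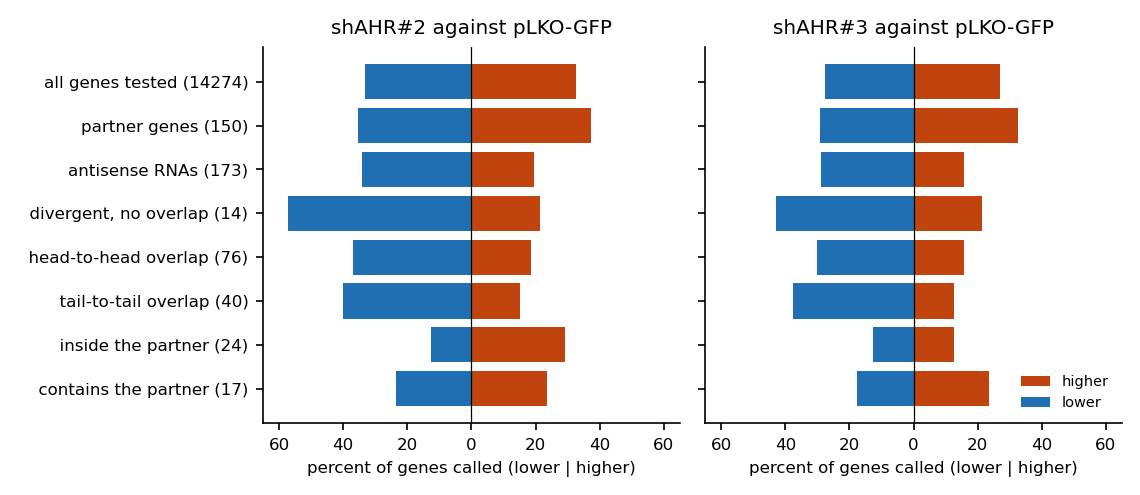
Percent of genes called lower (blue, left) and higher (red, right) with each hairpin against pLKO-GFP, for all genes tested, partner genes, antisense RNAs, and antisense RNAs by arrangement, with the number tested in brackets. Antisense RNAs were called higher in 19.7% and lower in 34.1% with shAHR#2, against 32.6% and 33.2% of all genes.

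As a background, 32.6% of all genes were called higher and 33.2% lower for shAHR#2. For shAHR#3 the shares were 26.9% and 27.5%. Of the 14 antisense RNAs that diverged without overlap, 3 rose (21.4%) and 8 fell (57.1%) with shAHR#2. With shAHR#3, 3 rose (21.4%) and 6 fell (42.9%). Of the 40 that met their partner tail to tail, 6 rose and 16 fell with shAHR#2 and 5 rose and 15 fell with shAHR#3. Of the 24 inside the partner, 7 were higher (29.2%) and 3 lower (12.5%) with shAHR#2, and 3 were called each way (12.5%) with shAHR#3. Among the 76 in head-to-head pairs, 14 rose (18.4%) and 28 fell (36.8%) with shAHR#2. For shAHR#3 these were 12 (15.8%) and 23 (30.3%). Of the 17 that spanned the partner, 4 were called each way (23.5%) with shAHR#2. With shAHR#3, 4 rose (23.5%) and 3 fell (17.6%). The differences between classes were not tested.

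Among the rises shared by both hairpins, BCAN-AS1 stood apart. BCAN encodes brevican, a proteoglycan of brain matrix. BCAN-AS1 (chr1:156637783-156641004, minus strand) had 3, 1 and 4 counts in the pLKO-GFP libraries, 143, 127 and 130 with shAHR#2 and 47, 43 and 70 with shAHR#3. Every knockdown library was far above every control library, and the 2 hairpin groups did not overlap either. From the summed counts, the level with shAHR#2 was 57.5 times that of control (95% exact interval 28.9 to 134) and with shAHR#3 19.3 times (9.58 to 45.6), where the intervals cover counting error only. BCAN itself had at most 3 counts in any library, so no change was measurable for the gene that names the RNA. BCAN-AS1 reached the mean count of 20 through the knockdown libraries, so a difference was built into its selection and no p is given.

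SLCO4A1-AS1 lies inside SLCO4A1, which encodes an organic anion transporter. Its counts were 147, 171 and 189 in control, 566, 485 and 500 with shAHR#2 and 397, 373 and 418 with shAHR#3. The 3 groups were fully separated, with shAHR#2 highest. The log2 fold change was 1.81 ± 0.08 (SE, adjusted p = 3.74e-21) and 1.18 ± 0.08 (1.11e-14). SLCO4A1 itself rose with shAHR#2, by 0.60 (7.11e-13), and its log2 fold change with shAHR#3 was -0.07 (adjusted p = 0.287 from edgeR).

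ELF3 is an epithelium-specific ETS transcription factor. ELF3-AS1 had 21, 15 and 17 counts in control, 43, 15 and 34 with shAHR#2 and 72, 78 and 89 with shAHR#3. One shAHR#2 library lay within the control range, whereas the shAHR#3 libraries were all above the others. The changes of the antisense RNA (0.98 ± 0.30 and 2.11 ± 0.25 on the log2 scale) were close in size to those of ELF3 (0.95 ± 0.13 and 2.08 ± 0.11). ELF3-AS1, too, had a control mean below 20 and entered through the knockdown libraries. Without shAHR#2 replicate 1, its shAHR#2 value was 0.76 and no longer passed.

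ZNF503 encodes a zinc finger repressor of developmental genes, and ZNF503-AS2 starts 245 bases from it. ZNF503-AS2 had 10, 9 and 9 counts in control, 46, 30 and 46 with shAHR#2 and 12, 26 and 25 with shAHR#3. ZNF503 had 25, 26 and 25, then 98, 103 and 93, then 73, 58 and 85. Both transcripts were highest with shAHR#2, intermediate with shAHR#3 and lowest in control. Log2 fold changes were 2.31 ± 0.33 and 1.11 ± 0.37 for the antisense RNA and 2.15 ± 0.19 and 1.45 ± 0.21 for ZNF503. ZNF503-AS2 was selected through the knockdown libraries, which carry its mean count. Its shAHR#3 call was lost without shAHR#3 replicate 2, at 0.91.

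HAS2 makes hyaluronan, a polymer of the extracellular matrix. HAS2-AS1 had 19, 24 and 14 counts in control, 66, 47 and 33 with shAHR#2 and 43, 45 and 35 with shAHR#3. HAS2 had 506, 556 and 555 counts, then 3828, 3175 and 3132, then 2283, 2319 and 2349. Both transcripts were above control in every knockdown library. HAS2-AS1 had a control mean below 20 and entered through the knockdown libraries. The partner rose more, by 2.85 ± 0.04 and 2.05 ± 0.04, than the antisense RNA, by 1.54 ± 0.26 and 1.06 ± 0.27 on the log2 scale, though the difference between pair members was not tested here or elsewhere in the pairs described.

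KLRK1-AS1 spans KLRK1, which encodes the activating receptor NKG2D of natural killer cells. The antisense RNA had 43, 55 and 53 counts in control, 133, 133 and 119 with shAHR#2 and 149, 160 and 176 with shAHR#3. KLRK1 had 11, 16 and 10, then 15, 23 and 17, then 54, 40 and 54 counts. The antisense RNA was raised about equally in both knockdown groups (1.55 ± 0.15 and 1.63 ± 0.14), while the counts of KLRK1 overlapped between control and shAHR#2 and were separate with shAHR#3 (0.77 ± 0.35 and 1.94 ± 0.29). The shAHR#2 call of KLRK1 had an adjusted p of 0.0486 and was lost with the replicate number as a block, with DESeq2 and without any of 7 single libraries. Without shAHR#2 replicate 2 its value was 0.53.

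NR2F1-AS1, beside the nuclear receptor gene NR2F1, also rose with its partner. It went from 16.8 ± 1.38 CPM to 21.2 ± 0.734 and 23.5 ± 0.434 (SD, n = 3), and NR2F1 from 15.4 ± 1.66 to 27.6 ± 0.351 and 39.7 ± 0.729. Neither transcript overlapped between control and knockdown groups. TENM3-AS1, which overlaps the start of the teneurin gene TENM3, rose by 0.77 ± 0.19 and 1.00 ± 0.18 on the log2 scale, while TENM3 fell by 0.62 with shAHR#2 and rose by 0.27 with shAHR#3. MMP25-AS1, beside a membrane-anchored metalloproteinase gene that had at most 2 counts per library, rose by 1.14 ± 0.26 and 0.74 ± 0.26. The second of these was lost without pLKO-GFP replicate 1 (0.66), pLKO-GFP replicate 2 (0.57) or shAHR#3 replicate 1 (0.67).

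**Figure D3:**
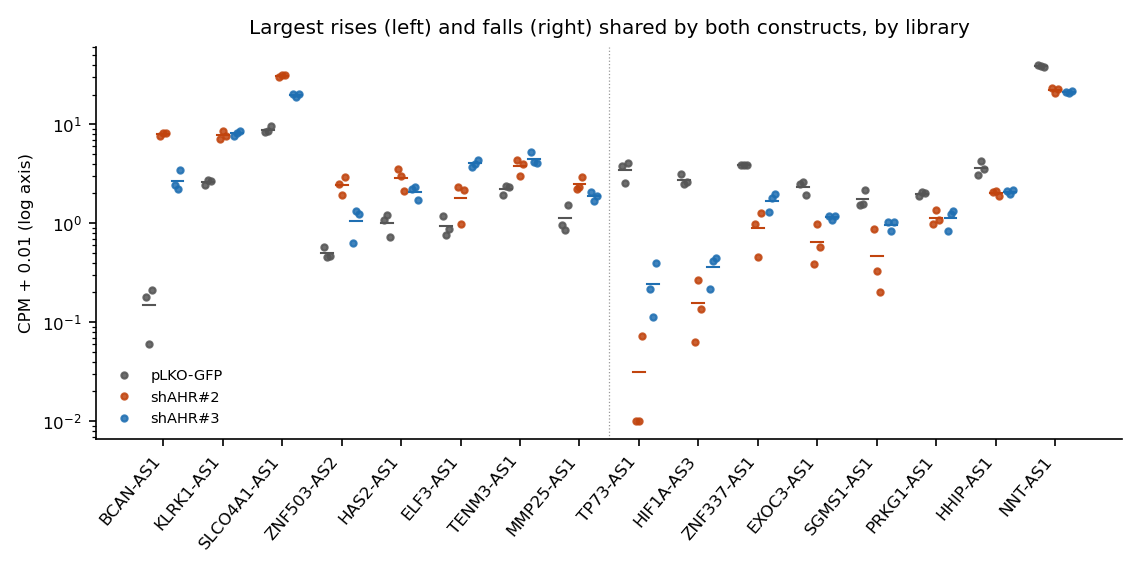
CPM plus 0.01 on a log axis for each library (points) and the group mean (bars) of the 8 antisense RNAs with the largest rises and the 8 with the largest falls shared by both hairpins. BCAN-AS1 goes from 0.141 CPM in control to 8.02 and 2.68, and TP73-AS1 from 3.48 to 0.0211 and 0.233.

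The deepest fall among the members with shAHR#2 was that of TP73-AS1, which overlaps the 3' end of TP73. TP73 encodes p73, a relative of the tumour suppressor p53. TP73-AS1 (chr1:3735511-3747373, minus strand) had 67, 51 and 81 counts in control, 0, 0 and 1 with shAHR#2 and 4, 2 and 8 with shAHR#3. It was at or near 0 in all shAHR#2 libraries. From the summed counts, 199 in control against 1 with shAHR#2, control was 173 times higher (95% exact interval 30.7 to 6874), and against shAHR#3 it was 14.7 times higher (8.56 to 27.4). TP73-AS1 was likewise selected through its control counts. TP73 fell too, with log2 fold changes of -1.33 ± 0.22 and -0.88 ± 0.20.

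HIF1A-AS3 overlaps the 3' end of HIF1A, the oxygen-regulated subunit of hypoxia-inducible factor. Its counts were 56, 50 and 51 in control, 1, 4 and 2 with shAHR#2 and 4, 8 and 9 with shAHR#3. HIF1A-AS3 reached the mean count of 20 through the control libraries. Control was 19.5 times higher than shAHR#2 (9.25 to 49.3) and 7.73 times higher than shAHR#3 (4.89 to 12.8). HIF1A moved the other way, from 678 ± 14.1 CPM to 955 ± 16.9 and 912 ± 2.21 (SD, n = 3), a log2 fold change of 0.49 ± 0.03 and 0.43 ± 0.02. Neither transcript overlapped between control and knockdown groups.

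ZNF337-AS1, beside a zinc finger gene, had 68, 77 and 77 counts in control, 18, 7 and 20 with shAHR#2 and 25, 35 and 40 with shAHR#3. It fell by 2.10 ± 0.26 and 1.20 ± 0.22 on the log2 scale, and 57.1% of its exonic bases overlapped exons of other genes. ZNF337 fell by 0.54 ± 0.10 with shAHR#2 and had a log2 fold change of -0.08 (adjusted p = 0.494) with shAHR#3. SGMS1-AS1, which faces a sphingomyelin synthase gene, had 27, 31 and 43 counts, then 16, 5 and 3, then 20, 16 and 21, and fell by 1.87 ± 0.37 and 0.87 ± 0.31. Its shAHR#3 call was lost without pLKO-GFP replicate 3 (-0.68) or shAHR#3 replicate 2 (-0.77), and with DESeq2.

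EXOC3 encodes a subunit of the exocyst, which tethers secretory vesicles to the plasma membrane. EXOC3-AS1, whose start lies 15 bases away in the sequence printed above, had 44, 52 and 38 counts in control, 7, 15 and 9 with shAHR#2 and 23, 21 and 24 with shAHR#3. EXOC3 had 652, 801 and 798, then 473, 360 and 383, then 545, 554 and 587. Every knockdown library of both transcripts was below every control library, and shAHR#2 was lowest. The antisense RNA fell by 1.90 ± 0.31 and 1.02 ± 0.26, and EXOC3 by 0.69 ± 0.06 and 0.46 ± 0.06, on the log2 scale. EXOC3 and NNT lie on chromosome 5, where the median log2 fold change of 656 tested genes was -0.48 with shAHR#2 and -0.26 with shAHR#3, and the part of this in both pairs was not tested.

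NNT encodes the mitochondrial nicotinamide nucleotide transhydrogenase. NNT-AS1 had 707, 778 and 744 counts in control, 433, 324 and 358 with shAHR#2 and 411, 408 and 441 with shAHR#3, and NNT had 4021, 4644 and 4256, then 2076, 1752 and 1700, then 3154, 3255 and 3440. The antisense RNA was lowered about equally by the 2 hairpins (-0.80 ± 0.07 and -0.87 ± 0.06), whereas NNT fell by 1.02 ± 0.03 with shAHR#2 and by 0.44 ± 0.03 with shAHR#3. HHIP-AS1, beside the gene of a hedgehog-binding inhibitor, fell by 0.84 ± 0.20 and 0.80 ± 0.19, and HHIP by 0.41 ± 0.13 and 0.96 ± 0.13. PRKG1-AS1, tail to tail with a cGMP-dependent kinase gene, fell by 0.82 ± 0.27 and 0.81 ± 0.26. PRKG1 had a log2 fold change of -0.20 (adjusted p = 0.206) with shAHR#2 and fell by 1.07 ± 0.15 with shAHR#3, and the shAHR#3 call of PRKG1-AS1 was lost without shAHR#3 replicate 1 (-0.63).

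Antisense RNAs and partners were then compared over the 150 pairs in which both were tested. With shAHR#2 both changed in 66 pairs, in the same direction in 43 (14 up, 29 down) and in opposite directions in 23. With shAHR#3 the same direction held for 35 pairs (9 up, 26 down) and opposite directions for 11. The antisense RNA alone changed in 16 and 18 pairs, the partner alone in 43 and 47, and neither in 25 and 39. Across pairs, the log2 fold changes of the 2 transcripts had a Pearson r of 0.32 with shAHR#2 and 0.49 with shAHR#3 (Spearman rho 0.30 and 0.42). These are descriptions across genes measured in the same libraries, and reads from shared exons can enter them. They include members with a mean below 20 in a group, so selection enters them as well.

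In the 54 pairs with starts within 1 kb, Pearson r was 0.59 with shAHR#2 and 0.64 with shAHR#3. In the 95 pairs with starts farther apart Pearson r was 0.25 and 0.46. Spearman rho was 0.44 and 0.51 in the close pairs and 0.21 and 0.36 in the distant ones. Among close pairs with both transcripts called, 19 agreed in direction and 5 differed with shAHR#2, and 17 and 2 did with shAHR#3. Among distant pairs the numbers were 24 and 18, then 18 and 9. Of the close pairs that agreed, 3 rose and 16 fell with shAHR#2, and 2 and 15 with shAHR#3. For the distant pairs these were 11 and 13, then 7 and 11. Where most transcripts fall, many pairs agree from that alone. How many would do so, here or over all pairs, was not tested. The difference between close and distant pairs was not tested. In the 27 pairs that shared no exonic base, where 1 read could not serve both exon sets, both fell in 8 and both rose in 2 with shAHR#2 and in 7 and 1 with shAHR#3, with 5 and 2 opposite. Their r was 0.25 with shAHR#2 and 0.28 with shAHR#3, below the 0.32 and 0.49 of all pairs. Their rho was 0.34 and 0.28, against 0.30 and 0.42 of all pairs. In the 23 of them outside chromosome 5, r was 0.11 and 0.11. Without chromosome 5, r was 0.57 and 0.60 in the 48 close pairs and 0.26 and 0.46 in the 90 distant ones. There rho was 0.38 and 0.41 in the close pairs and 0.19 and 0.34 in the distant ones.

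**Figure D4:**
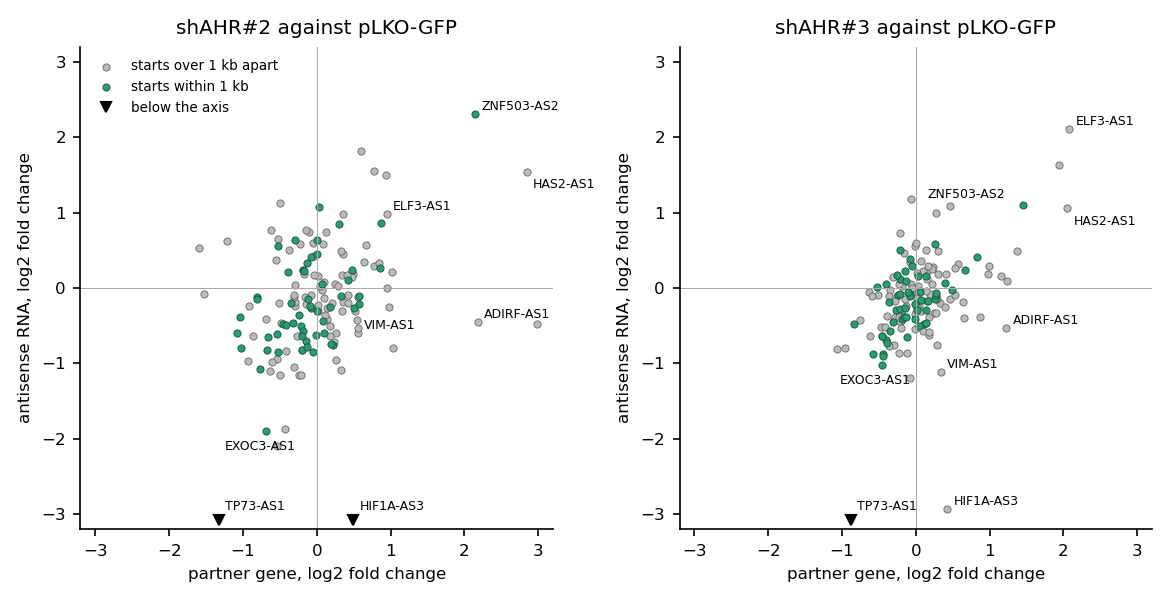
Log2 fold change against pLKO-GFP of the antisense RNA (y axis) and its partner (x axis) for 150 pairs, with shAHR#2 on the left and shAHR#3 on the right. Green points have starts within 1 kb (r of 0.59 and 0.64), grey points do not (0.25 and 0.46), and black triangles mark antisense RNAs whose value lies below the axis, TP73-AS1 in both panels and HIF1A-AS3 with shAHR#2.

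With both hairpins, 26 pairs were called in the same direction, 6 up and 20 down, and 14 of them had starts within 1 kb. The 2 comparisons share the pLKO-GFP libraries and are not independent. The 6 rising pairs were those of ELF3, HAS2, KLRK1, NR2F1, TPT1 and ZNF503. Of these, ELF3-AS1, HAS2-AS1 and ZNF503-AS2 entered through the knockdown libraries, so a rise was built into their selection. The falling pairs with a knockdown mean below 20 include those of TP73-AS1, EXOC3-AS1 and SGMS1-AS1, so selection enters there too. TPT1 encodes translationally controlled tumour protein, one of the most abundant proteins of growing cells. TPT1-AS1 had 73, 79 and 93 counts in control, 149, 109 and 128 with shAHR#2 and 117, 127 and 136 with shAHR#3. It rose by 0.85 ± 0.13 and 0.58 ± 0.13, and TPT1 by 0.30 ± 0.03 and 0.26 ± 0.03, and neither overlapped with control. The starts lie 61 bases apart, as printed above.

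Among the falling pairs, RNASEH1 encodes the enzyme that cuts RNA paired with DNA. RNASEH1-AS1, 86 bases away, had 133, 153 and 139 counts in control, 83, 75 and 83 with shAHR#2 and 78, 68 and 90 with shAHR#3. It fell by 0.62 ± 0.14 and 0.90 ± 0.14, and RNASEH1 by 0.54 ± 0.07 and 0.44 ± 0.06. STX18, a syntaxin of the endoplasmic reticulum, fell by 0.66 ± 0.07 and 0.58 ± 0.07 beside STX18-AS1, at 0.65 ± 0.28 and 0.87 ± 0.28 lower. STX18-AS1 had only 13 to 38 counts per library, and its shAHR#2 call was lost with DESeq2 and without any of 4 libraries, at -0.48 without shAHR#2 replicate 3, and its shAHR#3 call without shAHR#3 replicate 1 (-0.64). ADGRD1, an adhesion G protein-coupled receptor, fell by 0.93 ± 0.12 and 0.62 ± 0.11, and ADGRD1-AS1, which lies inside it and stood at 10.1 CPM per kb against 0.783 CPM per kb in control, by 0.96 ± 0.11 and 0.64 ± 0.11.

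A short gap was not always matched by a common direction. ZNF22-AS1 starts 35 bases from ZNF22, a zinc finger gene. The antisense RNA had 39, 59 and 47 counts in control, 84, 49 and 54 with shAHR#2 and 60, 53 and 56 with shAHR#3, and in CPM only the shAHR#2 libraries were all above control. With shAHR#2 it rose by 0.56 ± 0.19 (adjusted p = 0.0102 from edgeR). Its log2 fold change with shAHR#3 was 0.17 ± 0.20, which missed the threshold. ZNF22 fell by 0.52 ± 0.05 and 0.26 ± 0.04.

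Opposite directions with both hairpins were found in 8 pairs, none with starts within 1 kb. Members with a mean below 20 in a group, such as HIF1A-AS3 and GOLGA4-AS1, are among them, so selection enters these counts. In 6 of the 8 pairs the antisense RNA fell and the partner rose. Besides HIF1A these include VIM, which encodes the intermediate filament protein vimentin. VIM-AS1 had 113, 123 and 137 counts in control, 100, 55 and 61 with shAHR#2 and 62, 57 and 59 with shAHR#3. All knockdown libraries were below the control libraries. VIM-AS1 fell by 0.59 ± 0.15 and 1.11 ± 0.16, while VIM rose by 0.56 ± 0.02 and 0.34 ± 0.02. The antisense RNA was at 0.600% of the level of VIM per kb in control.

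ADIRF, a regulator of fat cell differentiation, rose by 2.18 ± 0.08 and 1.23 ± 0.08. ADIRF-AS1 had 96, 89 and 93 counts in control, 53, 56 and 67 with shAHR#2 and 70, 51 and 78 with shAHR#3, and fell by 0.46 ± 0.17 and 0.53 ± 0.17. The shAHR#2 call was lost with DESeq2 and without pLKO-GFP replicate 1 (-0.37) or shAHR#2 replicate 1 (-0.30), and the shAHR#3 call without shAHR#3 replicate 2 (-0.39). SBF2-AS1, tail to tail with a myotubularin-family gene, had 199, 251 and 295 counts, then 128, 91 and 114, then 150, 182 and 182. It fell by 0.96 ± 0.12 and 0.58 ± 0.11, and SBF2 rose by 0.26 ± 0.04 and 0.18 ± 0.04.

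PITPNA-AS1, which shares 384 exonic bases with the gene of a phosphatidylinositol transfer protein, fell by 1.09 ± 0.19 and 0.38 ± 0.16, and PITPNA rose by 0.33 ± 0.04 and 0.18 ± 0.04. The shAHR#3 call of PITPNA-AS1 had an adjusted p of 0.0479 and was lost with DESeq2 and without any of 4 libraries, with a value of -0.21 without pLKO-GFP replicate 3. GOLGA4-AS1, at 14 to 34 counts per library, fell by 0.71 ± 0.30 and 0.76 ± 0.29 while the golgin gene GOLGA4 rose by 0.23 ± 0.03 and 0.29 ± 0.03. Both calls of GOLGA4-AS1 were lost with DESeq2 and when single libraries were left out, at -0.60 and -0.65 without pLKO-GFP replicate 3.

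In the other 2 pairs the antisense RNA rose. AFAP1-AS1, tail to tail with an actin filament-associated gene, had 1135, 1239 and 1225 counts in control, 1807, 1586 and 1514 with shAHR#2 and 1392, 1339 and 1375 with shAHR#3. It rose by 0.65 ± 0.04 and 0.14 ± 0.04, and AFAP1 fell by 0.52 ± 0.03 and 0.30 ± 0.03, with 42.2% of the exonic bases of AFAP1-AS1 overlapping other exons. SH3PXD2A, a scaffold of invasive podosomes, fell by 0.14 ± 0.03 and 0.21 ± 0.03, and SH3PXD2A-AS1, inside it, rose by 0.77 ± 0.27 and 0.73 ± 0.26. The calls of SH3PXD2A-AS1 were lost without pLKO-GFP replicate 3 (0.68 and 0.64), and without shAHR#2 replicate 3 (0.51) or shAHR#3 replicate 2 (0.48).

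**Figure D5:**
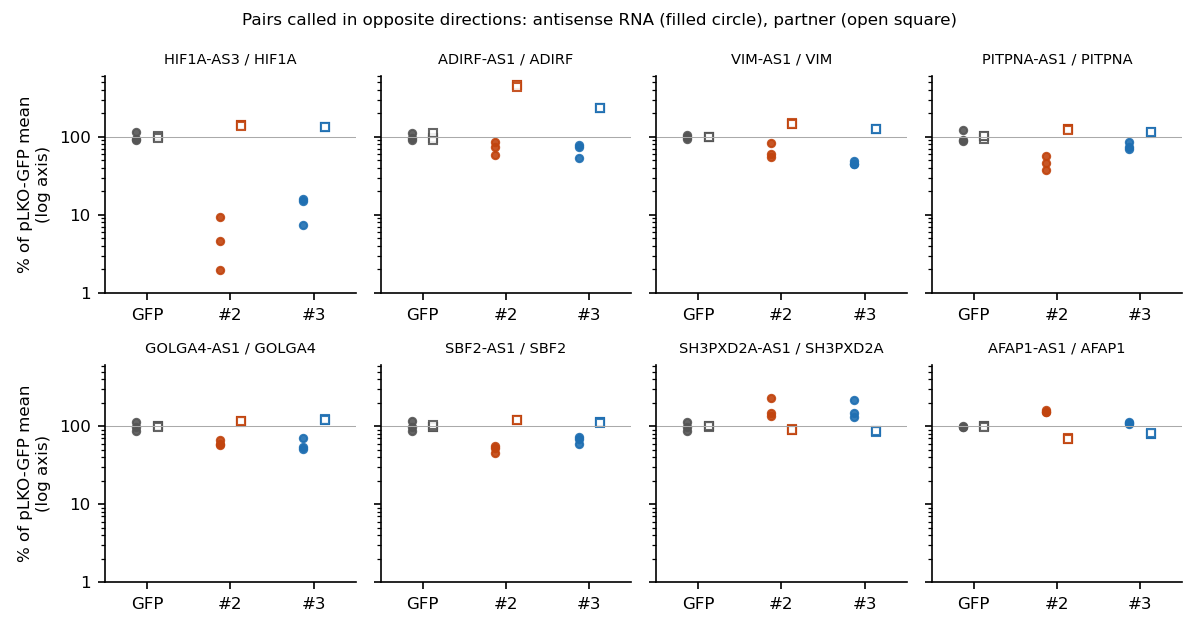
The 8 pairs called in opposite directions with both hairpins, as percent of the pLKO-GFP mean CPM on a log axis, for each library of pLKO-GFP (GFP), shAHR#2 (#2) and shAHR#3 (#3). Filled circles are the antisense RNA and open squares the partner; the widest separation is that of HIF1A-AS3, with 1 to 4 counts per shAHR#2 library against 50 to 56 in control.

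The 2 hairpins were also compared directly. Between shAHR#3 and shAHR#2, 51 antisense RNAs differed, 30 higher and 21 lower with shAHR#3, or 29.5% of members. Over all genes 42.3% differed, 21.9% higher and 20.4% lower. Of the partners, 83 differed, 40 higher and 43 lower. Both transcripts of a pair differed in the same direction in 20 pairs and in opposite directions in 9. FEZF1-AS1, inside the forebrain zinc finger gene FEZF1, had 24, 26 and 25 counts in control, 69, 59 and 57 with shAHR#2 and 38, 29 and 33 with shAHR#3. It rose with shAHR#2 by 1.50 ± 0.22, had a log2 fold change of 0.36 (adjusted p = 0.206) with shAHR#3, and was lower with shAHR#3 than with shAHR#2 by a log2 difference of -1.13 (adjusted p = 2.04e-05). FEZF1 was likewise lower, at -0.87 (adjusted p = 0.0012).

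Some antisense RNAs known from other settings were followed whatever their values. OIP5-AS1, tail to tail with a centromere gene, rose by 0.50 ± 0.03 and 0.46 ± 0.03, from 169 ± 2.55 CPM to 240 ± 3.17 and 233 ± 3.56 (SD, n = 3). OIP5 fell by 0.38 ± 0.09 with shAHR#2 and had a log2 fold change of -0.16 (adjusted p = 0.122) with shAHR#3. ZEB1-AS1 overlaps the start of the gene of the mesenchymal repressor ZEB1 and had 99, 96 and 97 counts in control, 60, 52 and 64 with shAHR#2 and 78, 85 and 77 with shAHR#3. It fell with shAHR#2 (-0.53 ± 0.16) and missed the threshold with shAHR#3 (-0.33 ± 0.15, adjusted p = 0.0577), while ZEB1 rose by 0.56 ± 0.03 and 0.27 ± 0.03. CYP1B1-AS1 and CDKN2B-AS1 were not members, with mean raw counts of 10.9 and 0.111. CYP1B1-AS1 faces the AHR target CYP1B1 and had 16, 11 and 20 counts in control, 4, 5 and 3 with shAHR#2 and 14, 9 and 16 with shAHR#3.

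On chromosome 5, 6 of 12 members fell and 1 rose with each hairpin, with median log2 fold changes of -0.51 and -0.39, against -0.14 and -0.11 for the 161 members elsewhere. The whole chromosome was lower. Of its 656 genes tested, 72.3% fell with shAHR#2 and 59.5% with shAHR#3, with medians of -0.48 and -0.26. Other classes of noncoding RNA gave a reference. Of all genes tested, 32.6% rose and 33.2% fell with shAHR#2, and 26.9% and 27.5% with shAHR#3. Of 178 tested LINC genes, 43 rose and 58 fell with shAHR#2 and 33 and 38 with shAHR#3. These were 24.2% and 32.6%, then 18.5% and 21.3%. Of 72 tested divergent transcripts (names ending in DT), 6 rose and 15 fell (8.33% and 20.8%), then 5 and 11 (6.94% and 15.3%). Antisense names below the mean count had 108 tested rows, with 9 higher and 20 lower (8.33% and 18.5%), then 6 and 17 (5.56% and 15.7%). Of 12385 tested protein-coding genes, 70.0% and 58.7% were called.

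Well-known noncoding RNAs outside the antisense class fell more often than they rose, with 3 higher and 12 lower of 24 tested with shAHR#2, and 2 and 10 with shAHR#3. UCA1 fell by 2.91 and 2.30 on the log2 scale and DANCR by 1.24 and 0.79. Genes of nuclear RNA surveillance and double-stranded RNA handling moved both ways, with 15 higher and 14 lower of 40 with shAHR#2 and 10 and 12 with shAHR#3. DROSHA, the nuclear microRNA-processing nuclease, fell by 1.09 and 0.59, while DICER1 rose by 0.74 and 0.37. DROSHA lies on chromosome 5, where 72.3% and 59.5% of tested genes fell. EXOSC9 had the largest fall of the EXOSC genes, which encode exosome subunits, by 0.99 and 0.57. EXOSC1, EXOSC2 and EXOSC6 also fell with both hairpins, and EXOSC4 rose with both. With shAHR#2 only, EXOSC8 fell and EXOSC3 rose. EXOSC5, EXOSC7 and EXOSC10 were called with neither. The part of these genes in the antisense changes was not tested.

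The naming and counting limit some members. NUTM2A-AS1 and NUTM2B-AS1 come from near-identical gene copies, and their reads may be divided between them. NUTM2A-AS1 fell by 0.55 ± 0.08 and 0.26 ± 0.08, and NUTM2B-AS1 had log2 fold changes of -0.03 and 0.18, which missed the threshold. AGAP2-AS1 (100% of exonic bases) and VASH1-AS1 (91.4%) lie almost wholly in exons of other genes, and neither passed the test in either knockdown. Over all members the median share of exonic bases in exons of other genes was 10.4%, 23 had none, and 138 shared at least 1 exonic base with the partner.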

How the data were processed

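RNA-seq was available for 9 libraries, 3 each of pLKO-GFP, shAHR#2 and shAHR#3, grouped by the sample titles. The authors prepared stranded libraries from poly(A) RNA, so antisense RNAs without a poly(A) tail are under-represented. They aligned reads to GRCh38.p13 and deposited unnormalized raw read counts for each gene. The submitters' processing notes name FastQC, STAR, Subread and featureCounts. The strand setting and annotation release are not given in the sources used here. Of long noncoding RNAs lying wholly in exons of the opposite strand, 59.2% of 395 had a count. The share was 14.3% of 119 lying wholly in exons of the same strand and 31.1% of 10501 without overlap. At a mean of at least 20 counts, the members' threshold, the shares were 2.03%, 1.68% and 2.42%. What these shares mean for the strand setting was not tested.

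Everything after the counts was computed anew. Genes were kept by filterByExpr (minimum count 10, minimum total 15), which left 14274 of 60649 genes, scaled by TMM and fitted with edgeR 4.0.16 (glmQLFit, glmQLFTest, R 4.3.3) over the 9 libraries with a mean per group. Calls needed a Benjamini-Hochberg adjusted p under 0.05 over all genes tested. The standard error of a fold change was back-calculated from its F statistic. CPM used TMM-scaled library sizes. The fitting script was tested on simulated data. Gene models came from GENCODE 44, promoters from RefSeq. A group total of 3 counts or fewer was given as a ratio of summed counts with an exact 95% interval, and the same was done for HIF1A-AS3 and BCAN-AS1. Alternatives were DESeq2 1.42.0 (the tool in the study's methods), other filters, size factors and thresholds, the replicate number as a block, the compared groups alone, and leaving out each library.

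The members and lists were chosen with earlier results of these data known. Genes were named by rule: the 8 largest rises and falls called with both hairpins (by the smaller change), the 3 largest differences between hairpins each way, up to 8 pairs called opposite and 8 called alike with both, the 5 highest per kilobase, 6 fixed names where they are members, and the 3 on either side of the mean count of 20. The TPT1, RNASEH1 and ZNF22 pairs, the NUTM2A, NUTM2B, AGAP2 and VASH1 antisense RNAs and the genes named from the reference lists fall outside it and were chosen after their values were seen.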

Additional observations from a re-analysis of the deposited data

Results flagged for a closer look

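Results stand here because the 2 hairpins differed in a direct test, edgeR's quasi-likelihood test of shAHR#3 against shAHR#2 at an adjusted p under 0.05, which 51 antisense RNAs passed. The values are log2 differences, shAHR#3 minus shAHR#2.

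Of the antisense RNAs that rose, BCAN-AS1 (-1.57), ZNF503-AS2 (-1.20), FEZF1-AS1 (-1.13), SLCO4A1-AS1 (-0.63) and AFAP1-AS1 (-0.51) were lower with shAHR#3, and ELF3-AS1 (1.13) was higher. Of those that fell, VIM-AS1 was lower still with shAHR#3 (-0.52). TP73-AS1 (3.18, from 1 count over the shAHR#2 libraries, so that this fitted value depends on the prior count), SGMS1-AS1 (1.00), ZNF337-AS1 (0.90), EXOC3-AS1 (0.87), PITPNA-AS1 (0.71), SBF2-AS1 (0.38), ADGRD1-AS1 (0.32) and THAP9-AS1 (0.27) were higher with shAHR#3. AHR itself differed between the hairpins, with 629 to 792 counts per library with shAHR#2 and 900 to 1019 with shAHR#3. Scaled to library size, mean AHR was 41.6 CPM with shAHR#2 and 47.7 with shAHR#3, a log2 difference of 0.19. The part of AHR in these differences was not tested.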

How the results depend on the processing

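The counts of antisense RNAs called were 93 with shAHR#2, 77 with shAHR#3 and 51 between the hairpins. Counting only genes with a mean of at least 50 gave 60 and 49 for the hairpins against control, where fewer members are tested. An adjusted p under 0.01 gave 49 with shAHR#3 and 25 between the hairpins. Adding an absolute log2 fold change of at least 1 gave 23, 14 and 5 antisense RNAs and 13, 9 and 4 partners. DESeq2 called 82, 53 and 33, all among the genes of the edgeR calls. Leaving out 1 library gave 83 to 94, 55 to 78 and 35 to 50 antisense RNAs, and 103 to 110, 87 to 93 and 71 to 84 partners. Same-numbered libraries correlated weakly, at 0.003 to 0.058, against -0.068 to 0.023 for libraries of different numbers. The library pLKO-GFP 1 correlated better with shAHR#2 3 (0.022) than with shAHR#2 1 (0.005). These small values lean toward the numbers but were not enough to show that they pair the libraries. With the replicate block, 94, 78 and 51 were called.

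Over the named genes and all alternatives, 2693 of 2823 values stayed on the same side of the threshold, 112 lost the call, 18 gained it and 0 changed direction. The values without chromosome 5 were chosen after seeing the data, and there 38 pairs moved alike and 23 opposite with shAHR#2, and 29 and 11 with shAHR#3. Several direct differences between the hairpins were lost when single libraries were left out. That of TP73-AS1 was lost without shAHR#2 replicate 1 (2.64), shAHR#2 replicate 2 (2.75) or shAHR#3 replicate 3 (2.58), and that of VIM-AS1 without shAHR#2 replicate 1 (-0.31). Those of ZNF337-AS1 (0.59), ADGRD1-AS1 (0.21) and SBF2-AS1 (0.29) were lost without shAHR#2 replicate 2. ZNF337-AS1 also lost it without shAHR#3 replicate 3 (0.77), and ADGRD1-AS1 (0.24) and SBF2-AS1 (0.32) without shAHR#3 replicate 2. That of EXOC3-AS1 was lost without 5 single libraries, at 0.57 without shAHR#2 replicate 1, and that of SGMS1-AS1 without 7, at 0.64 without shAHR#2 replicate 3. DESeq2 did not call the differences of EXOC3-AS1, SGMS1-AS1 and ADGRD1-AS1. The cause was not tested. Depth limits the 76 members with a mean of 20 to 50 counts.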
